A study of Mus musculus with 9 samples.

Results

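The genes described here lie on distal chromosome 6 of the mouse, between 119 and 140 Mb, in a stretch that holds the complement protease genes C1rb and C1s2, the murinoglobulin gene Mug2, the natural killer lectin genes and the Wnt co-receptor gene Lrp6. A gene was taken when its first listed chromosome was 6, its smallest start lay from 119000000 to 140000000, and its deposited counts scaled to library size (CPM) were 0.5 or more in at least 3 of the 9 libraries. Of 432 genes that start in the stretch, among 41388 in each table, 155 met the rule: 141 protein-coding genes and 14 of other kinds. The stretch was chosen by measured values: it was drawn around genes that differed between MttpLKO and control livers in these same libraries. Values and counts of that comparison are therefore given as a description of the choice, with no p-value for a member, and nothing is read from them.

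Polyadenylated RNA was sequenced from whole liver of male C57BL/6J mice, each of which had received the liver carcinogen diethylnitrosamine (DEN, 25 mg per kg, intraperitoneally) at 14 days of age, ate chow, and was 6 months old at collection. Control mice carried floxed Mttp alleles (Mttp f/f) alone. MttpLKO mice lacked Mttp, which encodes the microsomal triglyceride transfer protein needed to load lipid onto apolipoprotein B, in the liver. Fabp1 Mttp DKO mice (DKO below) lacked Mttp in the liver and carried a germline deletion of Fabp1, the gene of the liver fatty acid-binding protein. The labels call the mice C57BL/6J congenic, and the driver of the liver deletion is not given in the sources used here. Every group had DEN, and no group without it was among the samples. Each genotype had 3 libraries, each a pool of RNA from 3 mice, so the spread is that between pools and no single mouse was measured.

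C1r and C1s are serine proteases made mainly by hepatocytes. With C1q they form the C1 complex that starts the classical complement pathway, and the mouse has a pair of genes for each: C1ra and C1rb, C1s1 and C1s2. The alpha-2-macroglobulin family, with Pzp and the murinoglobulins Mug1 and Mug2, encodes large plasma proteins that trap proteases. Further along lie the Clec and Klr genes of the natural killer gene complex, a region of C-type lectin-like receptors and ligands known to differ between mouse strains.

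Both deletions showed in the libraries concerned: the control pools had 69.4 to 181 CPM of Mttp, MttpLKO pools 6.14 to 9.78 and DKO pools 3.24 to 5.79, and of Fabp1 6060 to 6845, 3379 to 4984 and 50.3 to 78.0. Libraries held 23268389 to 27918197 counts, the 3 DKO libraries being the shallowest, and the 155 members took 1.52% to 1.75% of all counts. MttpLKO replicate 3 stood apart on the first principal component of all tested genes (53.7, with the other libraries from -17.4 to 9.6). Its summed CPM was 57.1 for 6 B and plasma cell markers, against 4.79 to 8.28 in the other libraries, and 18.2 for 4 proliferation markers, against 2.29 to 9.32. Levels are given in CPM on TMM-scaled library sizes, in replicate order, and compared between genes only per gene length (RPKM). Liver identity was clear from 9 hepatocyte markers, each with counts, which summed to 67098 to 106861 CPM per library.

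In MttpLKO livers, 15 members stood out against control, from Adipor2 near one end of the stretch to Pik3c2g near the other, 11 higher and 4 lower. These are the members with an adjusted p under 0.05 in edgeR's quasi-likelihood fit (called below), 9.68% of the 155, all of which were in the fit, beside 0.346% of all 14741 genes tested. The direction-wise background was 0.224% for higher and 0.122% for lower genes. Since the stretch was chosen for these genes, nothing is read from that share. The called members were interspersed with many others: 21 members lay between C1s2 and Pianp, and 37 between Pianp and Clec2h. From 125 to 128 Mb none of 26 members was called in MttpLKO against control, DKO against control or DKO against MttpLKO. Of all genes tested 0.346%, 0.332% and 0.4% were called in these comparisons, so no call among 26 tells little. In the same order, 4, 2 and 1 of the 26 had an unadjusted edgeR p under 0.05. These are 15.4%, 7.69% and 3.85%, beside 6.97%, 11.2% and 9.1% of all genes. Over the 155 members the median log2 difference between MttpLKO and control was 0.036, beside 0.011 over all genes tested. An unadjusted p under 0.05 was reached by 41 members, or 26.5%, beside 6.97% of all genes, and the choice of the stretch bears on this share too.

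In DKO livers some of these differences were small or absent, as in Adipor2 and Pik3c2g. Others were partly present, as in Wnt5b and Lrp6. DKO against control called 1 member, Lrp6, which is 0.645% of members beside 0.332% of all genes tested. An unadjusted p under 0.05 was reached by 28 members (18.1%, with 11.2% of all genes). DKO against MttpLKO called 6 members: Adipor2 and Mug2 were higher in DKO and C1rb, C1s2, Pianp and Pik3c2g lower. These are 3.87% of members beside 0.4% of all genes tested, and 24 members (15.5%, with 9.1% of all genes) had an unadjusted p under 0.05. That comparison uses the same MttpLKO libraries that drew the stretch, and DKO against control uses the same controls, so neither is independent evidence for these genes. C1rb and C1s2 met the CPM rule through their MttpLKO libraries alone, so their call in DKO against MttpLKO followed from their selection, and no test of it is given. Outside the stretch, the rest of chromosome 6 had 3, 4 and 4 of 576 tested genes called in MttpLKO against control, DKO against control and DKO against MttpLKO, and other chromosomes 33, 44 and 49 of 14007.

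The count of members called in DKO against control depended on the tool: it was 0 by limma-voom and 7 by DESeq2. The 15 became 6, 4 and 3 without control replicate 1, 2 or 3, and 7 without MttpLKO replicate 2. Without MttpLKO replicate 3, the library that stood apart, 12 members were called in MttpLKO against control, 2 in DKO against control and 5 in DKO against MttpLKO.

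**Figure D1:**
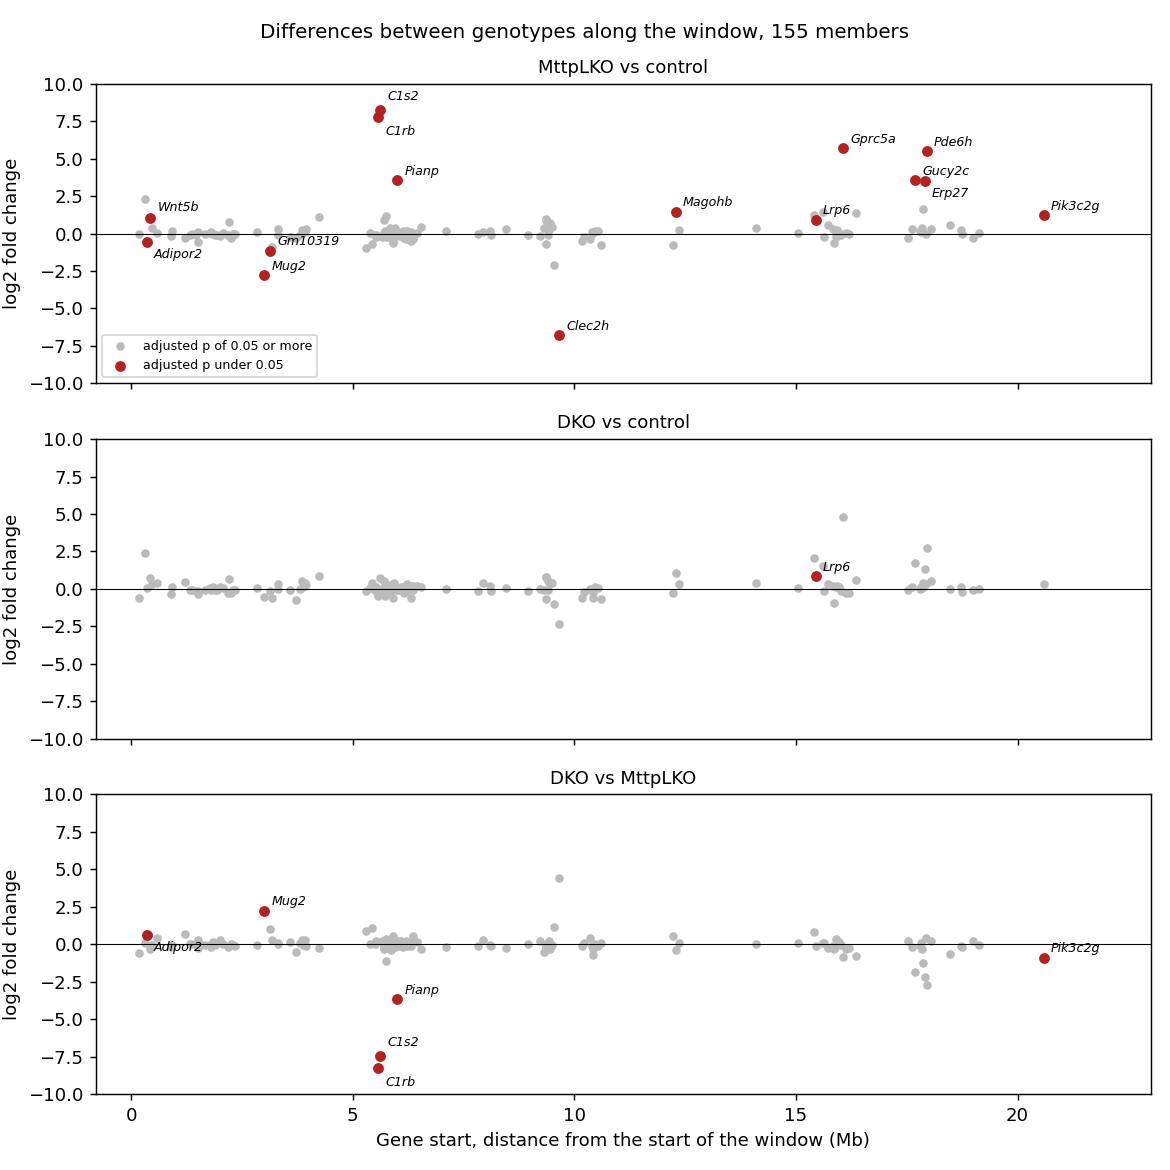
Each point is 1 of the 155 members, placed by the distance of its start from the start of the stretch (Mb, horizontal) and by its log2 fold change (vertical) in the comparison named above each panel; red marks an adjusted p under 0.05 in edgeR. C1rb and C1s2 lie far above 0 in MttpLKO against control and far below it in DKO against MttpLKO, while DKO against control has 1 red point, Lrp6.

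C1rb (ENSMUSG00000098470, chromosome 6, 124570294 to 124581171, plus strand) and C1s2 (ENSMUSG00000079343, 124624625 to 124636085, minus strand) start 0.054 Mb apart with no other member between them. Their neighbouring copies C1ra (124512632 to 124523440, plus strand) and C1s1 (124530345 to 124542359, minus strand) lie just before them. The start-site sequences of the 4 genes are shown because both copies of each pair encode closely alike transcripts while their mean levels in control liver lay far apart: 59.5 RPKM for C1ra and 0.056 for C1rb, 84.1 for C1s1 and 0.0469 for C1s2. They come from RefSeq (GRCm38.p6), 250 bases before and 50 after the start, on the gene's own strand: chr6:124512371-124512670 for C1ra, chr6:124570180-124570479 for C1rb, chr6:124542310-124542609 for C1s1 and chr6:124636036-124636335 for C1s2. Capitals mark matches, on either strand, to the TATA box TATAAA, the CCAAT box CCAAT, the HNF1 core GTTAAT and the STAT palindrome TTCNNNGAA.
C1ra: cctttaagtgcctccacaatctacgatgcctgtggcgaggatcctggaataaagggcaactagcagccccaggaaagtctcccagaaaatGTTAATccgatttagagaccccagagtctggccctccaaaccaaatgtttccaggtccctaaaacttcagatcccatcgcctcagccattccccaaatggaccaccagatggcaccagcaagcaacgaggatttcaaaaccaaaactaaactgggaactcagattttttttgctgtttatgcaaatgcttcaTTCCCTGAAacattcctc
C1rb: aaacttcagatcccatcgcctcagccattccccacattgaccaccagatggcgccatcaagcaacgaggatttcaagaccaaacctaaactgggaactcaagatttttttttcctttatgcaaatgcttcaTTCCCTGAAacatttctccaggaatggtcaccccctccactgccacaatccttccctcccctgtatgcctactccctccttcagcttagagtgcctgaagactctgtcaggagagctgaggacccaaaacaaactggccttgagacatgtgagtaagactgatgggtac
C1s1: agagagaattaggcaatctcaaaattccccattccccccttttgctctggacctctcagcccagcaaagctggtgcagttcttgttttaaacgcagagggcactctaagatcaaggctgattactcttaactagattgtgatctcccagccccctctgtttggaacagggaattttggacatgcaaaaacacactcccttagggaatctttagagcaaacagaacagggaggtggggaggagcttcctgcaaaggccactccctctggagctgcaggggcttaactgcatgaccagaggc
C1s2: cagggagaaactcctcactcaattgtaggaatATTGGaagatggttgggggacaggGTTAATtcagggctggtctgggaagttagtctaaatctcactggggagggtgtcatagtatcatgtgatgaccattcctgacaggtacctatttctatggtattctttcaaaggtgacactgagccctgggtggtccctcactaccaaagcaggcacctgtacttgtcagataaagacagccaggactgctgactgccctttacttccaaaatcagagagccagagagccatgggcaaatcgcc

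The C1ra window holds GTTAAT at -160 and TTCNNNGAA at +33, counted from the base at the start as +1. The C1rb window holds TTCNNNGAA at -119, and its RefSeq start lies 136 bases downstream of the start in the deposited tables. The C1s2 window holds CCAAT on the opposite strand at -218 and GTTAAT at -194, whereas the C1s1 window holds none of the 4 motifs. Of all 32851 windows in the RefSeq table, 37.4% hold CCAAT, 7.1% GTTAAT, 8.3% TTCNNNGAA and 13.6% TATAAA. Among 156 windows of the 112 members that matched, the shares were 32.1%, 7.69%, 9.62% and 8.97%. The best local alignment of the C1rb and C1ra windows had 93.9% identical bases over 148, while that of the C1s2 and C1s1 windows shown reached only 11 bases. RefSeq lists another C1s1 window, chr6:124542272-124542571, which is not shown and was not aligned.

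C1rb was read at 0.0404, 0.15 and 0.217 CPM in the control pools, at 30.0, 33.2 and 31.2 in the MttpLKO pools, and at 0.121, 0.17 and 0 in the DKO pools. The counts behind these values summed to 11, 2531 and 7, and the DKO pool at 0 counts would allow up to 3. All 3 MttpLKO pools therefore stood far above the other 6, which overlapped. The summed counts per depth were 226-fold higher in MttpLKO than in control (95% exact interval of 126 to 453, counting error only) and 318-fold higher than in DKO (154 to 792). The fitted log2 change in DKO against MttpLKO was -8.24 ± 0.37 SE, given as a description. The control and DKO pools were all under the CPM minimum. Their comparison rests on 11 and 7 summed counts, and no test of it is given.

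C1s2 showed the same order. Its CPM was 0.0404, 0.226 and 0.109 in control, 38.5, 40.2 and 37.6 in MttpLKO, and 0.241, 0.128 and 0.269 in DKO, from summed counts of 10, 3116 and 15. The ratio per depth was 306 (166 to 639) for MttpLKO over control and 183 (111 to 327) for MttpLKO over DKO. The fitted log2 change of C1s2 in DKO against MttpLKO was -7.48 ± 0.26 SE, again as a description. DKO and control overlapped, all under the CPM minimum, and no test between them is given.

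The other copies were abundant in every pool. C1ra was at 192, 148 and 150 CPM in controls, 165, 149 and 141 in MttpLKO, and 172, 181 and 180 in DKO. C1s1 was at 250, 265 and 274 CPM in controls, 239, 209 and 212 in MttpLKO, and 250, 235 and 247 in DKO. C1s1 was thus lower in every MttpLKO pool than in any control pool, while C1ra overlapped between these groups. C1rl, a C1r-like protease gene beside them, was at 106 to 144 CPM in all 9 pools. In DKO against control, none of these 3 genes passed the test (edgeR adjusted p of 0.779 for C1ra, 0.744 for C1s1 and 0.882 for C1rl).

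Because the copies are so alike, reads could be assigned to either. The longest transcripts of C1rb and C1ra were 98.1% identical where aligned, and those of C1s2 and C1s1 96.1%. Of all 50-base words in the C1rb transcript, 59.2% also occur in C1ra, and 26.9% of those in C1s2 also occur in C1s1. How reads that match several genes were counted is not given in the sources used here. The sum of C1s1 and C1s2 was 263 ± 12.5 CPM in controls, 259 ± 15.9 in MttpLKO and 244 ± 7.84 in DKO (SD, n = 3), and the MttpLKO pools overlapped control. The sum of C1ra and C1rb was 164 ± 25.0, 183 ± 11.1 and 178 ± 4.75 CPM. In MttpLKO pools C1rb held 17.1% to 20.2% of its pair's summed RPKM and C1s2 15.9% to 18.4%. By length, C1rb had 13.0 RPKM and C1s2 14.6 in MttpLKO, below the 55.1 of C1ra and the 70.3 of C1s1. Of 29 other complement genes tested from a list of 30, edgeR called none in MttpLKO against control, DKO against control or DKO against MttpLKO. Of all genes tested 0.346%, 0.332% and 0.4% were called, so no call among 29 tells little. In the same order 3, 3 and 4 of them had an unadjusted edgeR p under 0.05. These are 10.3%, 10.3% and 13.8%, beside 6.97%, 11.2% and 9.1% of all genes.

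**Figure D2:**
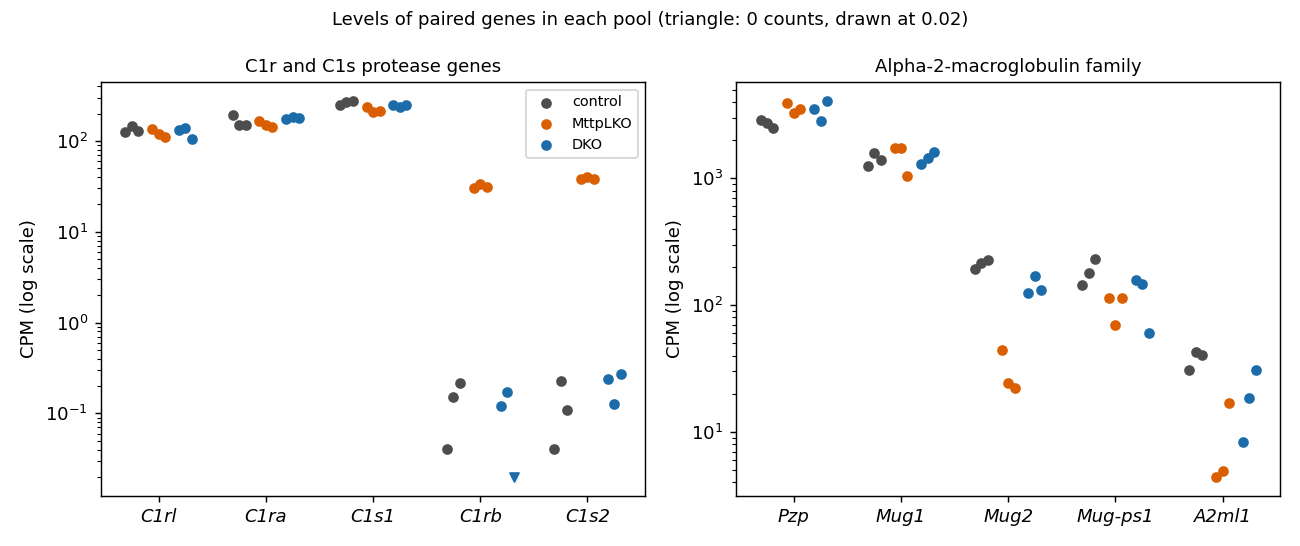
Points are single pools on a log axis of CPM, 3 per genotype, for the 5 C1r and C1s protease genes (left) and 5 genes of the alpha-2-macroglobulin family (right); the triangle is a DKO pool with 0 counts of C1rb. C1rb and C1s2 reach 30.0 CPM or more in MttpLKO alone, while Mug2 lies at 22.3 to 44.2 CPM in MttpLKO and at 125 or more in all other pools.

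Mug2 (ENSMUSG00000030131, 122006798 to 122085967, plus strand) went the other way from C1rb and C1s2 and was low in MttpLKO livers. Its start-site window (chr6:122006548-122006847) and that of Mug1 (chr6:121838291-121838590), from the same RefSeq table and with capitals as above, are shown because the 2 sequences are nearly the same while Mug2 separated the genotypes and Mug1 did not.
Mug1: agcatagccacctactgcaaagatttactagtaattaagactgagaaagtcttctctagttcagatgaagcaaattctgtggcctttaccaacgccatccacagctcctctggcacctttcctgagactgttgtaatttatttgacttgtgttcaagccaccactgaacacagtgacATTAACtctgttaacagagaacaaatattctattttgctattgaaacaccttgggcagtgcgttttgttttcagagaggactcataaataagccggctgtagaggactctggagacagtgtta
Mug2: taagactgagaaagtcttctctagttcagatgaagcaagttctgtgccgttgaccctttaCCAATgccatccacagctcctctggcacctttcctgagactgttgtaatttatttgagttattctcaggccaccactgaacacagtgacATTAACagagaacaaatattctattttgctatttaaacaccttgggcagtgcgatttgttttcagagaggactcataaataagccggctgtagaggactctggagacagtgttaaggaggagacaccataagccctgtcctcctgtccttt

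These windows had 96.5% identical bases over 256 aligned. Both hold GTTAAT on the opposite strand, at -73 in Mug1 and -101 in Mug2, and CCAAT was matched in Mug2, at -190, and not in Mug1. Mug2 was at 191, 216 and 227 CPM in controls, 44.2, 24.2 and 22.3 in MttpLKO, and 125, 171 and 131 in DKO. The 3 genotypes did not overlap, with DKO between the others. Mug2 in MttpLKO was 6.99-fold lower than in control (log2 fold change -2.80 ± 0.25 SE). It was 4.71-fold higher in DKO than in MttpLKO (2.24 ± 0.24 SE). That fold is given as a description, because the same low MttpLKO pools drew the stretch. The difference between DKO and control did not pass the test (-0.57 ± 0.23 SE, edgeR adjusted p = 0.392).

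Mug1, with a mean of 295 RPKM over the 9 libraries beside 28.2 for Mug2, overlapped in all 3 genotypes: 1251, 1577 and 1396 CPM in controls, 1743, 1716 and 1046 in MttpLKO, and 1289, 1440 and 1602 in DKO. Mug2 made up 12.9% to 15% of the summed RPKM of the pair in control pools, 1.5% to 2.67% in MttpLKO and 8.15% to 11.4% in DKO. The pseudogenes next to Mug2 were also lower in MttpLKO. Gm10319 was at 25.4, 21.2 and 21.2 CPM in controls, 13.5, 8.34 and 8.49 in MttpLKO, and 23.8, 20.4 and 16.9 in DKO (DKO against MttpLKO, edgeR adjusted p = 0.0771). Mug-ps1 was at 143 to 229 CPM in controls, 69.9 to 114 in MttpLKO and 60.2 to 157 in DKO. Their transcripts shared 97.1% and 96.9% of aligned bases with Mug2, and 50.5% of the 50-base words of Mug2 occur in other genes, so values of single copies are uncertain.

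The other family members were further along the chromosome. Pzp, the main plasma alpha-2-macroglobulin gene of the mouse, was at 2856, 2712 and 2485 CPM in controls, 3941, 3282 and 3518 in MttpLKO, and 3509, 2830 and 4054 in DKO. Each MttpLKO pool was above each control pool, and DKO overlapped both. A2ml1 was at 30.6, 42.9 and 40.5 CPM in controls, 4.43, 4.89 and 16.9 in MttpLKO, and 8.28, 18.6 and 30.6 in DKO, where neither DKO comparison passed the test (edgeR adjusted p = 0.504 against control and 0.554 against MttpLKO). Of the 6 family genes listed, A2m was below the CPM rule and the other 5 were tested; Mug2 was the only one called, in MttpLKO against control and in DKO against MttpLKO.

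At the near end of the stretch, Adipor2, the gene of a receptor for adiponectin (ENSMUSG00000030168, 119353150 to 119417704), was lower in MttpLKO, and DKO overlapped control. Its CPM was 399, 380 and 416 in control, 278, 259 and 272 in MttpLKO, and 420, 423 and 392 in DKO. Adipor2 was 1.53-fold higher in DKO than in MttpLKO (log2 change of 0.61 ± 0.10 SE). The value is a description, since the same MttpLKO pools drew the stretch. Its call in that comparison was lost on leaving out any of control replicates 2 and 3, the 3 MttpLKO replicates and DKO replicates 1 and 2. Next to it Wnt5b, a Wnt ligand gene named after its values were seen, was at 3.76, 3.50 and 4.45 CPM in controls, 8.98, 8.01 and 7.34 in MttpLKO, and 8, 5.66 and 5.69 in DKO. Both knockout groups were above control in every pool, with DKO against control not passing the test (edgeR adjusted p = 0.184). Wnt5b overlaps Fbxl14 on the other strand.

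Pianp (124996694 to 125003096), which encodes a membrane protein known from neurons, was the nearest called gene after C1s2. It was at 0.687, 0.602 and 0.326 CPM in controls, 4.05, 5.29 and 9.90 in MttpLKO, and 0.563, 0.724 and 0.224 in DKO. As for C1s2, MttpLKO alone was high, and control and DKO overlapped. Pianp fell 12.5-fold in DKO against MttpLKO (log2 change of -3.65 ± 0.46 SE). That fold is a description, because the same high MttpLKO pools drew the stretch.

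Between 128 and 136 Mb the DKO pools overlapped MttpLKO at the called genes, and at some of them lay far from one another. Clec2h, a C-type lectin-related gene (128662385 to 128677374), was at 26, 13 and 11.7 CPM in control and at 0.153, 0.11 and 0.185 in MttpLKO. The DKO pools read 0.121, 8.17 and 1.70 CPM, so that replicate 1 was as low as MttpLKO and replicate 2 approached the lowest control. Summed counts of 1312 and 12 gave a 111-fold lower level in MttpLKO than in control (95% exact interval of the ratio 63.5 to 216). Neither DKO comparison passed the test (edgeR adjusted p = 0.302 against control and 0.226 against MttpLKO).

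The natural killer complex gave few other readable genes. Of 51 lectin genes listed, 49 were in the tables and 12 met the CPM rule. Clec2h was the only one called, in MttpLKO against control. That is 8.33% of the 12 beside 0.346% of all genes tested. The comparison drew the stretch, so nothing is read from this share. The DKO comparisons called none of the 12, which tells little beside 0.332% (against control) and 0.4% (against MttpLKO) of all genes. Clec2d, a ligand gene for natural killer receptors and by length the most abundant of them (a mean of 127 RPKM over the 9 libraries), was at 210, 193 and 191 CPM in controls, 106, 131 and 175 in MttpLKO, and 124, 166 and 92.3 in DKO. All 6 knockout pools were below all controls, though DKO against control did not pass the test (edgeR adjusted p = 0.314). Clec9a, a dendritic cell receptor gene, was at 5.66 to 7.07 CPM in control and 3.76 to 4.70 in DKO (edgeR adjusted p = 0.348), and in MttpLKO at 4.51 to 8.67. Clec1b read 5.46 to 8.42 CPM over the 9 pools, and Clec1a, Clec7a, Clec12a and Clec4a1 stayed below 2.5 CPM. None of these 5 separated the genotypes.

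Levels of the lectin genes in whole liver depend on which cells are present, and fewer cells of a type cannot be told apart from less RNA per cell. The 11 natural killer and T cell markers, each with a count in some library, summed to 2.86 to 6.67 CPM in controls, 2.90 to 12.9 in MttpLKO and 3.58 to 4.98 in DKO. The part of these cells in the lectin values was not tested. The 7 Kupffer cell markers summed to 85.4 to 119 CPM in controls, 32.1 to 94.7 in MttpLKO and 57.4 to 133 in DKO. Cd163, a macrophage scavenger receptor gene inside the stretch and named after its values were seen, was at 5.38 to 6.98 CPM in controls, 1.57 to 4.49 in MttpLKO and 5.22 to 6.59 in DKO. The part of Kupffer cell content in the Cd163 values was not tested.

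Magohb, a subunit gene of the exon junction complex (131284388 to 131293244), was at 0.97, 1.17 and 1.63 CPM in controls, 3.97, 3.57 and 2.89 in MttpLKO, and 2.57, 3.02 and 2.46 in DKO. Both knockout groups lay above control and overlapped each other, and DKO against control did not pass the test (edgeR adjusted p = 0.128). Of its 50-base words, 55.7% also occur in Gm44958, so its reads may be shared.

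Lrp6 (134446476 to 134566965), which encodes a co-receptor for Wnt ligands, was the member called in DKO against control. Its CPM was 53.7, 52.9 and 54.4 in control, 99.3, 111 and 95.7 in MttpLKO, and 94.2, 75.5 and 118 in DKO. All 6 knockout pools exceeded all controls, which were nearly alike. Lrp6 rose 1.79-fold in DKO against control (log2 change of 0.84 ± 0.15 SE with edgeR adjusted p = 0.0446), and MttpLKO and DKO overlapped (edgeR adjusted p = 0.895). The same control pools drew the stretch, so the call in DKO against control is not independent evidence. The call was lost without any 1 control pool, without MttpLKO replicate 2 and without DKO replicate 1 or 3, with adjusted p up to 0.241. It was also lost with limma-voom, with a replicate block and with the 6 libraries compared alone, where the 1 member called was Gprc5a.

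Gprc5a, an orphan receptor gene induced by retinoic acid (135065651 to 135084709), was at 0.202, 0.602 and 0.47 CPM in controls, 8.52, 36.8 and 21.4 in MttpLKO, and 23.6, 2.85 and 10.4 in DKO. The knockout pools spread widely, yet the lowest of them exceeded the highest control. In DKO against control the log2 fold change was 4.82 ± 0.87 SE, just above the 0.05 threshold (edgeR adjusted p = 0.0503). Gprc5a was called in that comparison by DESeq2, with RLE scaling, without the low-count filter, with the 6 libraries compared alone, and without any 1 MttpLKO pool or DKO replicate 2.

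A cluster of 3 genes near 137 Mb was nearly silent in control. Gucy2c, an intestinal receptor guanylate cyclase gene, was at 0.0808, 0.188 and 0.109 CPM in controls, 1.60, 1.47 and 1.56 in MttpLKO, and 0.723, 0.213 and 0.358 in DKO. Erp27, which encodes a protein of the endoplasmic reticulum, was at 0.323, 0.188 and 0.181 CPM in controls, 2.83, 2.35 and 2.82 in MttpLKO, and 0.201, 0.724 and 0.851 in DKO. Pde6h, an inhibitory subunit gene of the cone phosphodiesterase, was at 0.0404, 0.113 and 0 CPM in controls, 2.6, 2.79 and 2.19 in MttpLKO, and 0.0402, 0.468 and 0.627 in DKO. In all 3 genes the MttpLKO pools were close together and above every other pool, and the DKO mean lay between those of control and MttpLKO. DKO replicate 1 was the highest DKO pool for Gucy2c and the lowest for Erp27 and Pde6h.

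The ratios per depth of MttpLKO to control were 12.2 for Gucy2c (95% exact interval 6.41 to 26), 11.7 for Erp27 (7.22 to 20.1) and 49.9 for Pde6h (19.2 to 185). None of the 3 passed the test in DKO against control (edgeR adjusted p = 0.261, 0.363 and 0.301) or in DKO against MttpLKO (edgeR adjusted p = 0.136, 0.0657 and 0.109).

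Pik3c2g, a class II phosphoinositide 3-kinase gene at the far end (139587221 to 139969284), was at 6.31, 7.18 and 5.82 CPM in controls, 16.8, 14.1 and 13.9 in MttpLKO, and 7.40, 7.75 and 9.05 in DKO. DKO was close to control again, all 3 of its pools being slightly higher (edgeR adjusted p = 0.447). Pik3c2g fell 1.85-fold in DKO against MttpLKO (log2 change of -0.89 ± 0.14 SE). The value is a description, since the same MttpLKO pools drew the stretch. Its call in that comparison was lost without MttpLKO replicate 1 or 2 or DKO replicate 1 or 2.

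**Figure D3:**
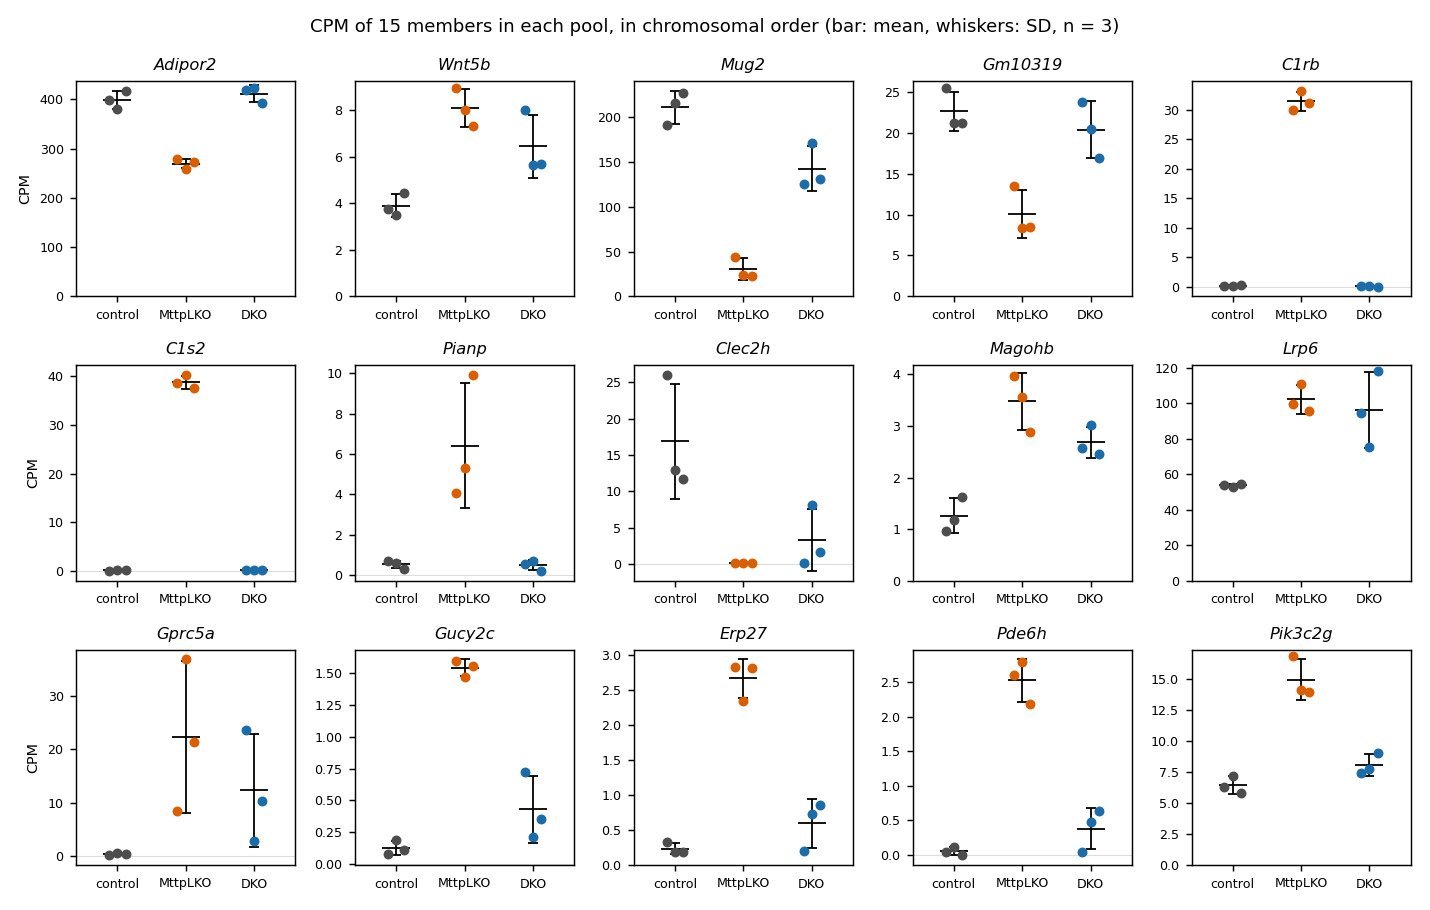
CPM of the 15 members called in MttpLKO against control, 1 panel per gene in chromosomal order, with 1 point per pool, the mean as a bar and the SD as whiskers (n = 3). DKO points sit with control for Adipor2, Gm10319, C1rb, C1s2 and Pianp. They lie above control for Wnt5b, Magohb, Lrp6, Gprc5a, Gucy2c and Pik3c2g.

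Read in order along the chromosome, the DKO pools sat with control at some genes and with MttpLKO at others. From 119 to 125 Mb DKO overlapped control in Adipor2, Gm10319, C1rb, C1s2 and Pianp, while in Mug2 it lay between the other genotypes. In Wnt5b it lay above control and overlapped MttpLKO. From 128 to 136 Mb no DKO pool overlapped control in Clec2h, Magohb, Lrp6 or Gprc5a, and each of these overlapped MttpLKO. At Gucy2c, Erp27, Pde6h and Pik3c2g no DKO pool overlapped MttpLKO. There DKO lay above control in every pool at Gucy2c and Pik3c2g, and overlapped control at Erp27 and Pde6h. Whether DKO differs between segments in this respect was not tested. These genes were called against the same controls, and the share of all genes with such separation of pools was not counted. Nothing is therefore read from the separation. Gene counts hold no allele information, and inherited DNA of another strain in this stretch was not tested.

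**Figure D4:**
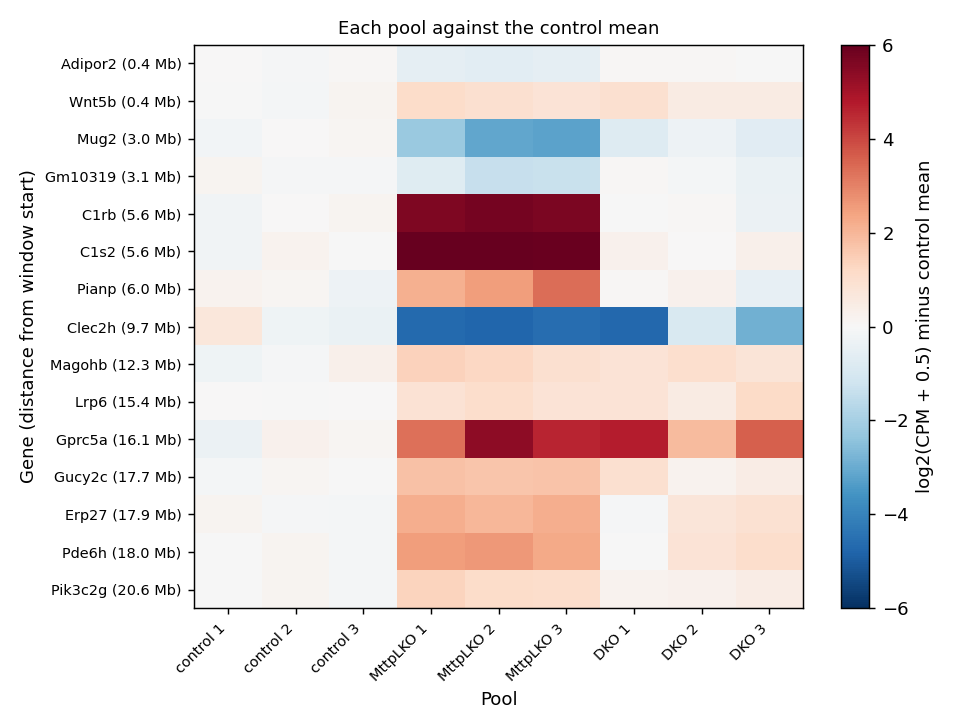
Rows are the 15 members in chromosomal order with the distance from the start of the stretch (Mb), columns are the 9 pools, and colour is log2(CPM + 0.5) minus the control mean. The DKO columns are pale from Gm10319 to Pianp and take the colours of MttpLKO, unevenly between pools, from Clec2h to Gprc5a.

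How many of the members showed such separation was not counted. By length the most abundant were Mgst1, a microsomal glutathione transferase gene, at a mean of 1575 RPKM over the 9 libraries, Ptms (parathymosin) at 1074, Pzp at 690, Mug1 at 295, the autophagy gene Gabarapl1 at 253 and Hebp1, a haem-binding protein gene, at 195. None of these 6 was called in any comparison. Of all genes tested 0.346%, 0.332% and 0.4% were called in MttpLKO against control, DKO against control and DKO against MttpLKO. No call among 6 therefore tells little. Mgst1 lay at 3079 to 3178 CPM in controls, 2805 to 3608 in MttpLKO and 2866 to 3374 in DKO, and Ptms was lower in each MttpLKO pool (1368 to 1584 CPM) than in each control (1711 to 1780), with DKO overlapping both.

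Some members differed without a call in any comparison of the main fit, and these were named after their values were seen. With DESeq2 all of them were called in MttpLKO against control, the comparison that drew the stretch. Rhno1 and Mansc1 were also called by DESeq2 in DKO against control. Rhno1, a DNA damage response gene near 128 Mb, was at 3.91 to 5.01 CPM in controls, 7.30 to 9.86 in MttpLKO and 6.13 to 8.92 in DKO (DKO against control, edgeR adjusted p = 0.161). Mansc1, next to Lrp6, was at 0.506 to 0.808 CPM in controls, 1.54 to 2.02 in MttpLKO and 1.41 to 2.6 in DKO (DKO against control, edgeR adjusted p = 0.0952). Both had all 6 knockout pools above all controls, like Lrp6. Emp1 and Mgp, by contrast, were above control in every MttpLKO pool and overlapped control in DKO. Emp1 was at 1.12 to 1.29 CPM in control and 2.35 to 4.19 in MttpLKO, and Mgp, a matrix protein gene, at 1.74 to 2.87 and 3.86 to 9.93.

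Genes at the limits of the rule are given as values alone. Just inside the near end lay Dcp1b, at 5.26 to 6.17 CPM in controls, 5.44 to 5.86 in MttpLKO and 3.24 to 4.26 in DKO, and Lrtm2, at 0.0808 to 0.326, 0.515 to 1.41 and 0.448 to 1.97 CPM. Just outside it lay Ankrd26 (6.28 to 8.64 CPM over the 9 pools) and Cacna1c (0.489 to 2.00). Beyond the far end, past Mgst1 and Pik3c2g, lay Plekha5 (22.6 to 35.6 CPM) and Aebp2 (19.2 to 26.1). By the third-highest deposited CPM, Gm4651 (0.516) and Gm15884 (0.531) were just inside, and Gm17089 (0.493) and a gene with no symbol (0.489) just outside. Of the members, 127 reached the CPM minimum in all 9 libraries and 28 in 3 to 8, and 12 were under it in every library of at least 1 genotype. C1rb, C1s2 and Eno2 met the rule through MttpLKO libraries alone, so they entered because their levels were high there.

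Over the 9 libraries, the genes with levels most like those of C1s2 were Gm13394 on chromosome 2 (Pearson r of log2(CPM + 0.5) = 0.997), C1rb (0.997), Tpmt on chromosome 13 (0.981), Slc22a26 on chromosome 19 (0.958) and Pianp (0.954). Gm13394 was at 0.263 to 0.362 CPM in controls, 69.6 to 93.0 in MttpLKO and 0.269 to 0.298 in DKO. Tpmt, the thiopurine methyltransferase gene, was at 30.9 to 32.6, 90.2 to 108 and 35.7 to 42.2 CPM. Like C1s2, Gm13394 was above 0.5 CPM in MttpLKO alone, and a high r between such genes follows from that. What the likeness comes from was not tested. Those most like Mug2 were Wdr83os (0.954) and Gadd45gip1 (0.946) on chromosome 8, Cops7b (0.949) and Rnpep (0.947) on chromosome 1, and Gm10319 (0.947). Gadd45gip1 was at 40.2 to 46.0 CPM in controls, 17.5 to 19.0 in MttpLKO and 27.3 to 41.9 in DKO. These correlations share the libraries and the difference between genotypes, and are given as a description.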

How the data were processed

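Counts of reads per gene, CPM and RPKM were deposited by the authors for 9 libraries, 3 pools of 3 mice per genotype. The deposited counts are whole numbers, not normalized; the deposited CPM are scaled to the total count and the deposited RPKM also per kilobase of gene length, per the file headers. CPM and RPKM recomputed from the counts differed by at most 5.1e-11 and 4.7e-11. The submitters' processing notes name STAR 2.0.4b, Subread and featureCounts 1.4.5; the sources used here do not give the build, the strand setting or the rule for multiply matching reads. Of 423 genes of the stretch found in GENCODE M21 (GRCm38), 316 had the same start and 420 lay within 100 kb.

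Counts were tested with edgeR 4.0.16 (R 4.3.3): filterByExpr with a minimum count of 10, TMM scaling, 3 genotype means over all 9 libraries, the quasi-likelihood F test, and Benjamini-Hochberg adjustment over 14741 genes at 0.05. CPM and RPKM printed here use TMM-scaled library sizes. Ratios of low counts carry exact (Clopper-Pearson) 95% intervals, which cover counting error only. The p-values measure the spread between pools. The test was tried first on simulated counts. Alternatives were RLE scaling, DESeq2 1.42.0, limma-voom 3.58.1, a changed low-count filter, the 6 libraries compared, a replicate block, and leaving out each library.

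Members and gene lists were chosen with earlier results of these data known. Named genes were C1rb and Mug2, the 12 called members with the largest change per comparison, the C1 protease and alpha-2-macroglobulin lists, lectin genes called or with mean CPM of at least 1, genes at the limits of the rule, the 6 members of highest RPKM, and the 5 genes most like C1s2 and Mug2 over the 9 libraries. Summed markers of natural killer and T, Kupffer, B and plasma cells, hepatocytes and proliferation were read in each library; 6 sinusoidal endothelial markers summed to 162 to 270 CPM, 6 stellate cell markers to 196 to 415, and 6 bile duct markers to 63.0 to 140. RefSeq start-site windows were matched by symbol, and the longest GENCODE M21 transcript of each gene was used for sequence comparison, with identity taken over aligned bases without gaps.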

Additional observations from a re-analysis of the deposited data

How the results depend on the processing

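The 22 called differences of members kept their sign under the 16 alternatives; uncalled differences are not covered by this count. Mug2 and Pianp were called in DKO against MttpLKO under all 16. The calls of C1rb and C1s2, and those in MttpLKO against control, follow the selection and are no sign of stability. Those of Mug2 and Pianp use the same MttpLKO libraries that drew the stretch, so they are not independent evidence either. The members called, 15, 1 and 6 in MttpLKO against control, DKO against control and DKO against MttpLKO, were 21, 7 and 12 with DESeq2, 20, 4 and 12 without the low-count filter, 12, 0 and 7 with limma-voom, and 15, 2 and 6 with RLE scaling. Over all genes, 51, 49 and 59 calls became 165, 255 and 214 with DESeq2 and 171, 201 and 180 without the filter. With the 6 libraries compared alone they were 50, 78 and 34. Leaving out 1 library gave 3 to 13, 0 to 3 and 4 to 6 called members, and 14 to 54, 15 to 100 and 22 to 73 genes. The cause was not tested, beyond fewer samples in these fits. With a CPM minimum of 1 the stretch held 138 members, and 279 of its genes had a count.

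Same-numbered pools correlated at -0.244 to 0.072 in their deviations from the genotype means, and differently numbered pools at -0.181 to 0.214. The numbers thus gave no sign of pairing, but such deviations cancel within a genotype and cannot exclude it. With a replicate block, 10, 0 and 5 members and 35, 40 and 43 genes were called. Levels near 0 in C1rb, C1s2, Pde6h and Gucy2c rest on 4 to 15 summed counts per genotype, which limits their folds.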

Other observations

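Some genes of the stretch that were too low for the rule also differed in counts; they were picked after their values were seen and were given no test. Klrb1c (chromosome 6, 128778485 to 128789215), a natural killer receptor gene, had 9, 10 and 6 counts in the control pools, 1, 0 and 0 in MttpLKO and 3, 1 and 2 in DKO. The neighbouring Klrb1b had 2, 10 and 3 counts in control, 0, 3 and 0 in MttpLKO, and 2, 21 and 13 in DKO. The pseudogene BC064078 in the same region had 1, 1 and 0 counts in control, 13, 10 and 15 in MttpLKO, and 2, 2 and 5 in DKO. Klrb1c and BC064078 thus separated control from MttpLKO in opposite directions, and Klrb1b did not separate them.

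Platr31, an antisense gene near 127 Mb (127108389 to 127110467), had 0, 2 and 0 counts in control, 7, 8 and 7 in MttpLKO, and 2, 3 and 3 in DKO. Grin2b (135713232 to 136173511), the gene of a glutamate receptor subunit, had 6, 11 and 8 counts in control, 1, 0 and 1 in MttpLKO, and 7, 9 and 3 in DKO. Of the 277 genes of the stretch below the rule, 153 had no count in any library.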
